A study of Mus musculus with 2 samples.

Results

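The genes of the motile cilium were followed in bulk RNA-seq of 2 rhabdoid tumors (RT) of mice. The members were defined by name, as protein-coding genes whose symbols start with Dnah, Cfap, Rsph or Tekt followed by a digit, together with Dnai1 and Dnai2. There were 64 of them among the 55416 genes of the table, namely 34 Cfap, 15 Dnah, 8 Rsph, 5 Tekt and 2 Dnai genes. The question was whether ciliated cells, such as those of the airway or the ependyma, were present in the tumor pieces.

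Both tumors came from Dppa3-cre::Smarcb1 fl/+ mice on a C57BL/6 background, so no genotype difference separated the samples. Cre was knocked in behind an internal ribosome entry site at the Dppa3 locus (C57BL/6-Dppa3em1(IRES-Cre)Smoc), which is switched on in primordial germ cells, and Smarcb1 had 1 floxed and 1 wild-type allele. Of the tumors, 1 was labelled intracranial, at the trigeminal nerve, and 1 extracranial, facial and maxillar, and MYC was the class given for both. They are called the intracranial and the extracranial library after these labels. A list of basal and squamous epithelium genes, however, summed to 25008 CPM in the intracranial library and 0.598 CPM in the extracranial library. CPM are counts relative to the scaled size of the library, and the list was chosen with earlier results of these data known. No value here checks which tumor is which, so the labels may be in doubt, and every direction stated rests on them. Ages were not given in the sources used here, each library is a single tumor, and normal tissue was not analysed here. The libraries held 34545846 and 26915696 counts, in the order intracranial and extracranial that is used throughout. Smarcb1, the floxed gene, which codes for a SWI/SNF subunit, had 365 and 530 counts. Staining in the paper showed loss of Smarcb1 protein in an intracranial and an extracranial tumor of this model, which gene counts do not measure.

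Motile cilia are whip-like extensions that beat on the surface of airway, ependymal and oviduct cells, and the tail of sperm is built on the same axoneme. Outer and inner arms of axonemal dynein slide microtubule doublets past each other, radial spokes and a central pair of microtubules control that sliding, and filaments inside the doublets keep them stable. Multiciliated cells switch these genes on together through transcription factors such as FOXJ1 and the RFX family. Primary cilia, which most cells carry, share the doublets and the transport machinery but lack the arms, the spokes and the central pair.

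Most motile cilia genes lay far below the typical protein-coding gene in both tumors, and the reads of the set came from a few genes that are also used outside motile cilia or that share sequence with one another. A gene was taken as detected above 3 counts, which is 0.0863 CPM in the intracranial library and 0.112 CPM in the extracranial library. By this limit 48 of 64 members (75.0%) were detected in the former and 36 (56.2%) in the latter, against 73.6% and 68.5% of all 21928 protein-coding genes. In the intracranial library, 7 members had 0 counts, 9 had 1 to 3, 10 had 4 to 9, 24 had 10 to 99 and 14 had 100 or more. In the extracranial library the same classes held 14, 14, 7, 19 and 10 members. All 48 members detected in the intracranial library also exceeded 0.112 CPM there, the limit of the shallower library. Both libraries detected 34 members, 14 were detected in the intracranial library alone, and Dnah6 (1 and 7 counts) and Cfap299 (2 and 4 counts) in the extracranial library alone. Neither library detected the remaining 14, of which 7 were at 0 in both. Of all 21928 protein-coding genes, 5385 were detected in neither. Detection in 1 library alone was not counted over all genes, so that part of the split has no background beside it.

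**Figure D1:**
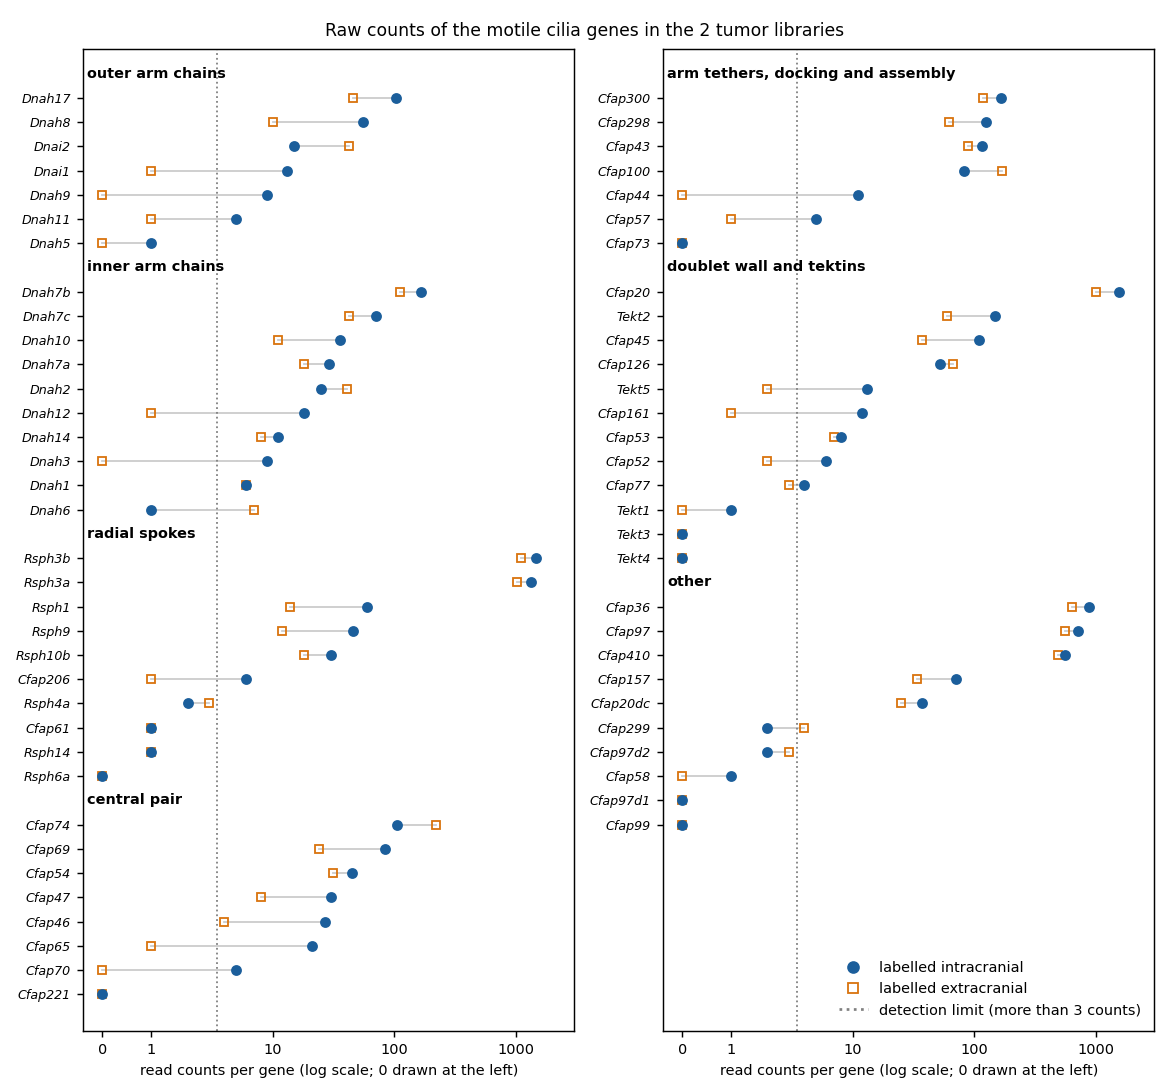
Raw read counts of each of the 64 motile cilia genes (x axis, log scale with 0 drawn at the left) in the intracranial library (filled circles) and the extracranial library (open squares), grouped by the part of the cilium they belong to. Rsph3b, Rsph3a and Cfap20 stand farthest to the right, with 1441, 1316 and 1530 counts in the intracranial library, whereas 7 members are at 0 in both.

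Added up, the members reached 242.6 CPM (exact Clopper-Pearson 95% interval 237.5 to 247.8) and 229.8 CPM (224.1 to 235.6). There were no replicates, and every interval here covers counting error only, since no molecular identifiers are described for these reads and copies of 1 molecule cannot be told from separate molecules. The 5 highest members, Cfap20, Rsph3b, Rsph3a, Cfap36 and Cfap97, made up 69.7% and 69.9% of these counts. The other 59 together held 73.6 and 69.2 CPM. In bulk tissue, fewer cells of a type and less RNA per cell cannot be told apart.

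Per kilobase of exon, the scale on which genes can be compared with each other, the median member stood at 0.0759 and 0.0315 CPM per kb. The median protein-coding gene stood at 1.42 and 1.07 CPM per kb. Only 9 members exceeded that median in the intracranial library, namely Rsph3b, Rsph3a, Cfap20, Cfap36, Cfap97, Cfap300, Cfap410, Cfap298 and Tekt2, and 11 did so in the extracranial library, where Cfap100 and Cfap126 joined them. Of 26 genes of the primary cilium and of intraflagellar transport, which moves cargo along any cilium, 24 exceeded it in each library. The highest member, Rsph3b at 13.3 and 13.2 CPM per kb, lay at percentile 86.1 of protein-coding genes in both libraries.

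**Figure D2:**
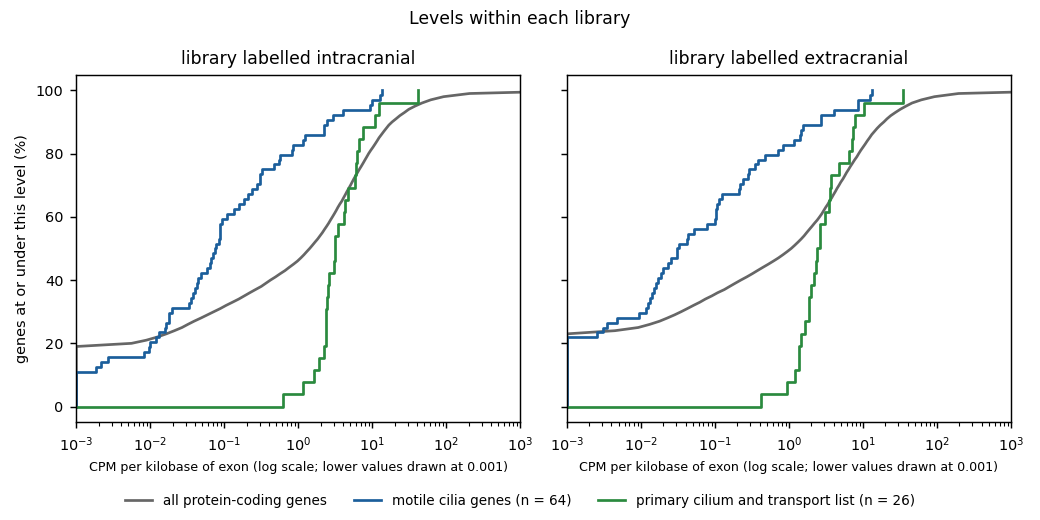
Cumulative share of genes (y axis, %) at or under a given level (x axis, CPM per kilobase of exon, log scale) in the intracranial (left) and the extracranial library (right). The curve of the 64 motile cilia genes (blue) lies to the left of all protein-coding genes (grey) over most of its length, with medians of 0.0759 and 0.0315 CPM per kb, whereas the 26 primary cilium and transport genes (green) are all detected.

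Of the outer dynein arm, which supplies most of the force of the beat, the heavy chains of airway cilia were at or near 0. Dnah5, a heavy chain of this arm, had 1 and 0 counts, which are 0.0288 CPM (95% interval 0.000729 to 0.16) and a limit of at most 0.138 CPM. Dnah9, its partner chain in the distal part of airway cilia, had 9 and 0 counts, so that the intracranial library was at least 2.31-fold higher when 3 counts are put in place of the 0. Dnah11, the partner chain in the proximal part, had 5 and 1 counts. None of the 3 heavy chains known from airway and ependymal cilia therefore reached 10 counts in either library.

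The intermediate chains of the same arm, Dnai1 and Dnai2, are both needed for it and stood on opposite sides. Dnai1 had 13 counts (0.374 CPM, 95% interval 0.199 to 0.64) in the intracranial library and 1 count (0.0374 CPM, 0.000946 to 0.208) in the extracranial library, a log2 ratio extracranial over intracranial of -3.32 with a conditional exact binomial 95% interval of -8.73 to -0.59. Dnai2 had 15 counts (0.432 CPM, 0.242 to 0.712) and 42 counts (1.57 CPM, 1.13 to 2.12), which is 3.64-fold higher in the extracranial library (log2 ratio 1.86, 0.98 to 2.82). The 2 chains of 1 complex thus differed in opposite directions, each by more than counting error.

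The other heavy chains of the outer arm, Dnah8 and Dnah17, are known from sperm flagella and stood at 0.059 and 0.184 CPM per kb in the intracranial library, above the 0.0162 of Dnah9. Dnah8 had 55 counts (1.58 CPM, 1.19 to 2.06) and 10 counts (0.374 CPM, 0.179 to 0.687) and was 4.24-fold higher in the intracranial library (log2 ratio -2.08, -3.22 to -1.10). Dnah17 had 103 counts (2.96 CPM, 2.42 to 3.6) and 46 counts (1.72 CPM, 1.26 to 2.29), a log2 ratio of -0.79 (-1.32 to -0.27). Of the remaining members known from sperm, Tekt5 had 13 and 2 counts (0.374 and 0.0747 CPM, log2 ratio -2.32, -5.51 to -0.18), and Tekt3, Tekt4 and Rsph6a had 0 in both libraries. Spermatid genes had few reads, with 2 and 3 of 10 detected. The protamine Prm1 had 1 and 5 counts, and Prm2 had none.

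Among the inner arm heavy chains, which shape the waveform of the beat, 9 and 8 of 10 were detected, with a summed level of 10.7 and 9.19 CPM. Dnah7b had 166 and 112 counts, Dnah7c 70 and 42, and Dnah7a 29 and 18, and none of the 3 intervals of the ratio excluded 0. These genes are copies of each other, with 21.9% to 34.6% of their possible 72-base reads found in other genes, so the split of reads among them is uncertain. Dnah10 was higher in the intracranial library with 36 and 11 counts (log2 ratio -1.33, -2.46 to -0.33), as was Dnah12 with 18 counts and 1 count (-3.79, -9.17 to -1.13). Dnah2 went the other way with 25 and 41 counts (1.09, 0.34 to 1.87), and Dnah6 had 1 and 7 counts. Dnah14 (11 and 8), Dnah1 (6 and 6) and Dnah3 (9 and 0 counts) completed the group. The Dnah3 exons overlap those of Lyrm1 on the opposite strand over 10.5% of their length.

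The radial spokes held the highest levels per kilobase of the whole set, but in 1 pair of genes only. Rsph3b had 1441 counts (41.5 CPM, 39.4 to 43.7) and 1103 counts (41.2 CPM, 38.8 to 43.7), and Rsph3a had 1316 counts (37.9 CPM, 35.9 to 40.0) and 1008 counts (37.7 CPM, 35.4 to 40.1). Their log2 ratios were -0.01 for each, with intervals of -0.12 to 0.11 and -0.13 to 0.11, the narrowest of the set together with that of Cfap20. The pair encodes the same spoke stalk protein, shares 61.5% (Rsph3b) and 53.2% (Rsph3a) of possible reads with other genes, each other among them, and took 32.7% and 34.3% of all member counts.

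The spoke head was lower, with Rsph1 at 1.24 and 0.381 CPM per kb. Rsph4a, a core protein of the head in airway cilia, had 2 and 3 counts, under or at the detection limit in both libraries. Rsph1, a further head protein, had 59 and 14 counts and was 3.25-fold higher in the intracranial library (log2 ratio -1.70, -2.65 to -0.84), and Rsph9, also of the head, had 46 and 12 counts (2.95-fold, -1.56, -2.61 to -0.62). Rsph10b had 30 and 18 counts, Cfap206 6 and 1, and Rsph14 and Cfap61 1 and 1 each. In the intracranial library, the stalk genes Rsph3b and Rsph3a therefore stood at 13.3 and 12.6 CPM per kb. The head genes Rsph1, Rsph9 and Rsph4a of the same structure stood at 1.24, 0.826 and 0.0158 CPM per kb there.

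Members of the central pair, the 2 single microtubules in the middle of the axoneme, were detected for 7 and 5 of 8 and summed to 9.09 and 10.7 CPM. Cfap74 accounted for much of this with 105 counts (3.02 CPM) and 219 counts (8.18 CPM), 2.71-fold higher in the extracranial library (log2 ratio 1.44, 1.10 to 1.79). A non-coding transcript annotated against it, 5830444B04Rik, had 21 and 118 counts and overlaps 4.55% of its exon length, and whether reads of the 2 strands were kept apart was not stated. The other central pair members that differed beyond counting error were higher in the intracranial library. They were Cfap69 with 83 and 24 counts (-1.41, -2.13 to -0.74), Cfap47 with 30 and 8 (-1.53, -2.87 to -0.37), Cfap46 with 27 and 4 (-2.38, -4.35 to -0.86) and Cfap65 with 21 and 1 (-4.02, -9.39 to -1.38). Cfap54 had 45 and 31 counts, Cfap70 had 5 and 0, and Cfap221 had none.

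Genes that tether, dock or assemble the arms were detected for 6 and 4 of 7. Cfap300, a cytoplasmic factor in the assembly of dynein arms, had 164 and 117 counts (log2 ratio -0.11, -0.47 to 0.24), and Cfap43, a tether protein, had 116 and 89 (-0.01, -0.42 to 0.41). Cfap44, its partner in the tether, had 11 and 0 counts, at least 2.82-fold higher in the intracranial library against 3 counts. Cfap100 had 82 counts (2.36 CPM) and 169 counts (6.32 CPM) and was 2.68-fold higher in the extracranial library (1.42, 1.03 to 1.82), and the annotated gene on the opposite strand, Zxdc, covered 0.291% of its exons. Cfap57 had 5 and 1 counts and Cfap73 had none in either library.

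The wall of the doublet was led by Cfap20, a small protein of ciliary microtubules that is also used in primary cilia and centrioles. It had 1530 counts (44.0 CPM, 41.9 to 46.3) and 1004 counts (37.5 CPM, 35.2 to 39.9), 1.17-fold higher in the intracranial library (log2 ratio -0.23, -0.35 to -0.12). Tekt2, a tektin filament protein inside the doublet, had 147 and 60 counts (-0.92, -1.37 to -0.47), and Cfap45, a protein of the doublet lumen, had 109 and 37 (-1.18, -1.76 to -0.63). Cfap126 (flattop) went the other way beyond counting error, with 52 and 67 counts (0.74, 0.20 to 1.29). Tekt1, another tektin, had 1 and 0 counts, Cfap161 had 12 and 1, Cfap53 had 8 and 7 (0.18, -1.51 to 1.84), and Cfap52 and Cfap77 had 6 or fewer in each library. Of the 12 genes of this group, 9 and 5 were detected.

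Several members are known outside motile cilia, and these accounted for a large share of the reads. Cfap36 had 875 counts (25.2 CPM, 23.5 to 26.9) and 631 counts (23.6 CPM, 21.8 to 25.5), Cfap97 had 710 (20.4 CPM, 19.0 to 22.0) and 552 (20.6 CPM, 18.9 to 22.4), and Cfap410 had 558 (16.1 CPM, 14.8 to 17.4) and 486 (18.2 CPM, 16.6 to 19.9). Their log2 ratios of -0.09, 0.01 and 0.18 had intervals that held 0. Cfap298, which is needed for dynein arms and has roles beyond them, had 124 counts (3.57 CPM, 2.97 to 4.25) and 62 counts (2.32 CPM, 1.78 to 2.97), a log2 ratio of -0.62 (-1.09 to -0.17), and 28.5% of its possible reads fell in other annotated transcripts. With Cfap20, these 5 genes summed to 109.3 and 102.2 CPM, and the set without them to 133.3 and 127.6 CPM. Among members with no such grouping, Cfap157 had 71 and 34 counts, Cfap20dc 37 and 25, and Cfap58, Cfap97d1, Cfap97d2 and Cfap99 had 3 or fewer in each library.

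Between the libraries, no member differed by the rule that the whole 95% interval of the ratio lies beyond 4-fold, among genes with 10 or more counts in total. The rule was met by 0 of 40 members, against 7.19% of all 21977 genes with that many counts (5.41% higher in the intracranial library and 1.78% in the extracranial library). Among the 11501 protein-coding genes with no more counts than the highest member, 10.5% met it (8.14% and 2.33%). Since 1 library per location cannot give a test, the rule compares the libraries and not the locations. It also needs 21 counts if all lie in the intracranial library and 14 if all lie in the other, and 32 and 37 members had that many, so smaller differences of rare genes were not detectable at this depth. With the whole interval beyond 2-fold, 5 members met it, Cfap65, Dnah12 and Dnah8 higher in the intracranial library and Cfap74 and Cfap100 in the extracranial library, against 15.6% of all genes (9.77% and 5.86%) and 21.1% of those protein-coding genes (14.1% and 6.94%). By the ratio alone, with counts of 3 or fewer set to 3, 4 members were beyond 4-fold, Cfap46, Cfap65, Dnah12 and Dnah8, each higher in the intracranial library, against 11.6% of all genes (7.99% in that direction and 3.58% in the other) and 16.1% of those protein-coding genes (11.7% and 4.43%).

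Smaller differences leaned toward the intracranial library. Of the 40 members with a ratio, 31 were higher there and 9 in the extracranial library, against 11650 and 10327 of all 21977 genes. The members had a median log2 ratio of -0.34 against -0.04 over all genes. The interval lay wholly on the intracranial side for 19 members (47.5%, against 32.2% of all genes and 37.5% of protein-coding genes with no more counts than the highest member) and wholly on the extracranial side for 5 (12.5%, against 29.2% and 28.7%). Those 5 were Dnai2, Cfap74, Cfap100, Dnah2 and Cfap126, which fall in 5 of the groups described above. The primary cilium genes, by comparison, had a median of -0.35 over 26 genes, with 18 intervals on the intracranial side and 1 on the other.

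**Figure D3:**
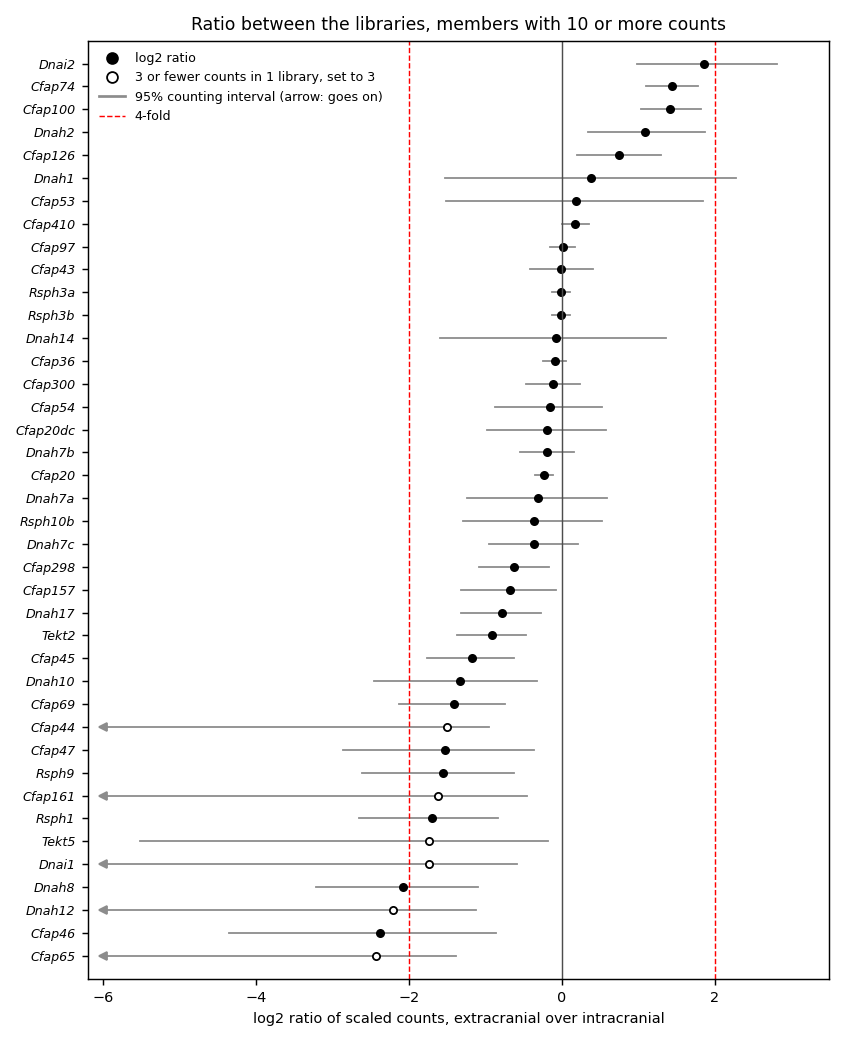
Log2 ratio of scaled counts, extracranial over intracranial (x axis), for the 40 motile cilia genes with 10 or more counts over both libraries, with exact 95% counting intervals (lines, arrows where they go on) and the 4-fold limits (dashed). Open circles mark genes with 3 or fewer counts in 1 library, drawn at the ratio to 3 counts. Values run from -2.43 (Cfap65, drawn at the ratio to 3 counts) to 1.86 (Dnai2), and no interval lies wholly beyond either dashed line.

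The promoters of the members were searched for the letters that the known regulators of motile cilia genes bind. The hexamer GTTGCC, which reads GGCAAC on the other strand, is the core of the X-box of RFX factors, whose full form is a facing pair of these hexamers, and TGTTTAC, which reads GTAAACA on the other strand, is a forkhead motif of the kind bound by FOXJ1. In the 250 bases before the transcription start (RefSeq, GRCm38.p6), 17 of the 53 members with a promoter in the table held GTTGCC on either strand (32.1%), against 11.8% of 27025 genes and 10.4% of 32851 promoters of that length. TGTTTAC was found in 4 members, Cfap20, Cfap43, Dnah17 and Tekt3 (7.55%, against 3.54% of genes). A match describes letters in this window and is no binding site by itself.

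The promoters below are shown 5′ to 3′ on the strand of the gene, with both motifs in capitals. They were picked to run from the member with the most counts in the intracranial library to members near 0 counts. Where a gene had several promoters, the one with the most matches was shown. They lie at chr8:95434870-95435119 (minus strand, Cfap20), chr16:90934850-90935099 (minus, Cfap298), chr4:126325647-126325896 (minus, Tekt2), chr11:114727169-114727418 (plus, Dnai2), chr7:83794840-83795089 (minus, Cfap161), chr11:72361883-72362132 (minus, Tekt1) and chr15:28203516-28203765 (plus, Dnah5).
Cfap20: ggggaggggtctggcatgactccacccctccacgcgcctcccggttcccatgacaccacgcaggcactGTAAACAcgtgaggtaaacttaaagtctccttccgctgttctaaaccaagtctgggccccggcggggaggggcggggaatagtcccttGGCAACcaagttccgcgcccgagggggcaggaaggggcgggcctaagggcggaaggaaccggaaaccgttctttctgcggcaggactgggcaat
Cfap298: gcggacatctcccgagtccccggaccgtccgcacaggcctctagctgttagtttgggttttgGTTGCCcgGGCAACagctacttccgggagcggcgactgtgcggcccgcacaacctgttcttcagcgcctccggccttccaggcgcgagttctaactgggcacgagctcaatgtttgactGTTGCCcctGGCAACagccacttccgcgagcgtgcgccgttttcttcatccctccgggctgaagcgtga
Tekt2: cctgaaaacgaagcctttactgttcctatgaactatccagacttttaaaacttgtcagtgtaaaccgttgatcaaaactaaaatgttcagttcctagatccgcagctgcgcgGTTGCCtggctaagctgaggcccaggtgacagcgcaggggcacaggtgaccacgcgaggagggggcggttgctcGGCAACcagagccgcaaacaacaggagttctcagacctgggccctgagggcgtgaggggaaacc
Dnai2: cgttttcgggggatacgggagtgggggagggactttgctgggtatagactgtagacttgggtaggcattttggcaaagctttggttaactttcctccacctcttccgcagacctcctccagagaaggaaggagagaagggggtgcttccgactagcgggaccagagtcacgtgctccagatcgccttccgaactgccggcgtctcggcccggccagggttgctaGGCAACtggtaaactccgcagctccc
Cfap161: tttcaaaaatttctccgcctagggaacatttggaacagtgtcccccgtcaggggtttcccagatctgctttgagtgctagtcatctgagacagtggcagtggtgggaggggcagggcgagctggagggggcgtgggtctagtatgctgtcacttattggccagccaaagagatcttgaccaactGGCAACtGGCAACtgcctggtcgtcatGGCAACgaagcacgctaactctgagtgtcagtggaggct
Tekt1: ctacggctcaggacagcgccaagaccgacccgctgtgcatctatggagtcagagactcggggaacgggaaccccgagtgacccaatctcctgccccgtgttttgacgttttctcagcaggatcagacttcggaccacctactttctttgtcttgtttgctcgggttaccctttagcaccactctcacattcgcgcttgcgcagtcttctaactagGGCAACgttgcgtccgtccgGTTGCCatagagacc
Dnah5: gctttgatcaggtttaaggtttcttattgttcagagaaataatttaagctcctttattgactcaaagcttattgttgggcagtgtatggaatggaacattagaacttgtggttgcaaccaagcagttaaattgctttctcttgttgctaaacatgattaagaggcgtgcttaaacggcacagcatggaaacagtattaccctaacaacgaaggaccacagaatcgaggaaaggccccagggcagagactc

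Over the set, the 17 members with GTTGCC had a median of 0.108 and 0.125 CPM per kb and the 36 without it 0.0460 and 0.0178, and 14 and 12 against 26 and 17 were detected. The promoters shown were picked to span the counts, with the window of most matches for each gene, so they do not stand for the set. All of them but that of Dnah5 held GTTGCC, against 32.1% of the members with a promoter. The Cfap298 promoter held it 4 times, as 2 facing pairs, beside 124 and 62 counts, and that of Cfap161 held it 3 times beside 12 and 1 counts. The Tekt1 promoter shown, with 2 matches, belonged to a gene with 1 and 0 counts, whereas that of Tekt2, also with 2, belonged to one with 147 and 60. RefSeq gives Tekt1 2 promoters and Tekt2 3, and 1 of each gene held no match. Cfap20, with 1 match of each motif, had the most counts of the 7, and Dnah5 had no match and 1 and 0 counts. Rsph3b and Rsph3a, the highest members per kilobase, were not shown and held no match of either motif.

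Other genes of the motile cilium were taken from lists of the regulators and of the other parts of the axoneme. Of the 10 regulators of multiciliation, 7 were detected in each library, with a summed level of 17.3 and 10.1 CPM. Foxj1, the main activator of motile cilia genes, had 32 and 29 counts (0.921 and 1.08 CPM, log2 ratio 0.23, -0.54 to 1.01). Mcidas and Gmnc, the coactivators that start the multiciliated program, had 15 and 7 counts and 0 and 6 counts, and Deup1, which amplifies centrioles in these cells, had 0 and 3. Trp73, a transcription factor of multiciliated cells, had 52 and 0 counts, at least 13.3-fold higher in the intracranial library. Of the 7 regulators with 10 or more counts over both libraries, Trp73 alone met the 4-fold rule, against 7.19% of all genes. Rfx3, which also serves primary cilia, had 196 and 133 counts, and Rfx2 had 184 and 54.

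Of the dynein assembly factors, 6 of 10 were detected in each library, and the group summed to 26.4 and 27.5 CPM. Dnaaf5 (309 and 253 counts), Dnaaf3 (244 and 303) and Spag1 (229 and 90) held most of these reads, whereas Dnaaf1 had 2 and 2 and Dnaaf4 and Dnaaf6 had none. Among further dynein chains and docking proteins 8 and 7 of 10 were detected, led by Dnal4 (520 and 468 counts) and Odad1 (419 and 324), while Odad2 had 1 and 0. In the nexin-dynein regulatory complex, the link between doublets, and its rulers, 8 and 7 of 10 were detected. Gas8 had 582 and 388 counts, Ccdc39 had 197 and 97, and Drc1 had 29 and 98 (log2 ratio 2.13, 1.52 to 2.78). The central pair genes outside the name rule were lower still, since Hydin had 2 and 0 counts, Spag16 1 and 0 and Spag17 7 and 1, and Spef1 alone, also a protein of other microtubules, reached 438 and 131. In the order given, 6, 8, 8 and 4 genes of these 4 groups had 10 or more counts over both libraries. None of them met the 4-fold rule, which 7.19% of all genes met, so few calls could have been seen.

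Markers of the cells that could carry motile cilia were set beside the members. Of 12 ciliated cell markers 11 and 6 were detected, with a summed level of 102.2 and 34.0 CPM, of which Tppp3, also expressed in other cells, gave 87.1 and 25.7 CPM. Of the 9 markers with a ratio, Ccdc113 (124 and 1 counts) and Ccdc153 (21 and 0) met the 4-fold rule. Both were higher in the intracranial library, against 5.41% of all genes called in that direction. Sntn, Pifo and Fam183b, which are tightly tied to ciliated cells, had 3 and 0, 6 and 0, and 4 and 0 counts. The ependymal list had 9 and 7 of 10 detected at 45.3 and 20.1 CPM. Of its 9 genes with a ratio, the interval lay wholly on the intracranial side for 7, against 32.2% of all genes. It lay wholly on the extracranial side for Nnat alone (39 and 48 counts, log2 ratio 0.68, 0.04 to 1.32), against 29.2% of all genes. Of these 9 genes, Enkur (288 and 30 counts) and again Ccdc153 met the 4-fold rule in the intracranial direction, against 5.41% of all genes. S100b had 168 and 30, Tmem212 44 and 5 and Aqp4 11 and 0. Acta2, a muscle actin of many cells, held the most reads (873 and 384 counts). For the choroid plexus, 6 and 5 of 10 were detected at 66.6 and 55.8 CPM, of which Aqp1 gave 54.8 and 54.6. Of the 6 genes with a ratio, Otx2 (196 and 0 counts), Sostdc1 (107 and 8) and Prlr (85 and 6) met the 4-fold rule. Each was higher in the intracranial library, against 5.41% of all genes called in that direction. Ttr and Kl, defining genes of this tissue, were at 0 in both. The olfactory list had 8 and 4 of 10 detected at 17.4 and 9.19 CPM. Of its 6 genes with a ratio, Ano2 alone (67 and 1 counts) met the 4-fold rule. It was higher in the intracranial library, against 5.41% of all genes called in that direction, whereas Omp had 42 and 43 counts.

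Genes of basal and squamous epithelium, and some of airway secretory cells, differed more between the libraries than any motile cilia gene. The basal and squamous list, with the keratins Krt13, Krt4 and Krt14, summed to 25008 CPM in the intracranial library and to 0.598 CPM (0.342 to 0.971) in the extracranial library. The 4-fold rule was met by 10 of its 10 genes, against 7.19% of all genes. The lists were chosen with earlier results of these data known, so this contrast is a description and no independent support. The airway secretory list summed to 2643 and 20.0 CPM, of which Muc5b alone gave 2412 CPM in the intracranial library. Of its 8 genes with 10 or more counts over both libraries, 6 met the rule. Muc5b, a mucin of airway glands and secretory cells, had 83812 and 0 counts, and Bpifb1 had 4428 and 0, whereas Scgb1a1 and Scgb3a2, the secretoglobins of club cells, had 4 and 0 counts and 0 in both. Scgb3a1 had 21 and 1, as did the member Cfap65, and Aqp5, a water channel of glands, had 653 and 529 counts. Beside these values, the summed level of the motile cilia genes, to which the 5 highest members gave most reads, was 1.06-fold higher in the intracranial library (log2 ratio -0.08, -0.13 to -0.03), and the median member with a ratio stood at -0.34. Of the genes tied to ciliated cells, Ccdc113 (124 and 1), Enkur (288 and 30), Trp73 (52 and 0), Tmem212 (44 and 5) and Ccdc153 (21 and 0) were higher in that library, whereas Dnah5, Hydin and Sntn were at 3 or fewer counts in both. What part cells of these lists had in the members that were higher in the intracranial library was not tested.

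**Figure D4:**
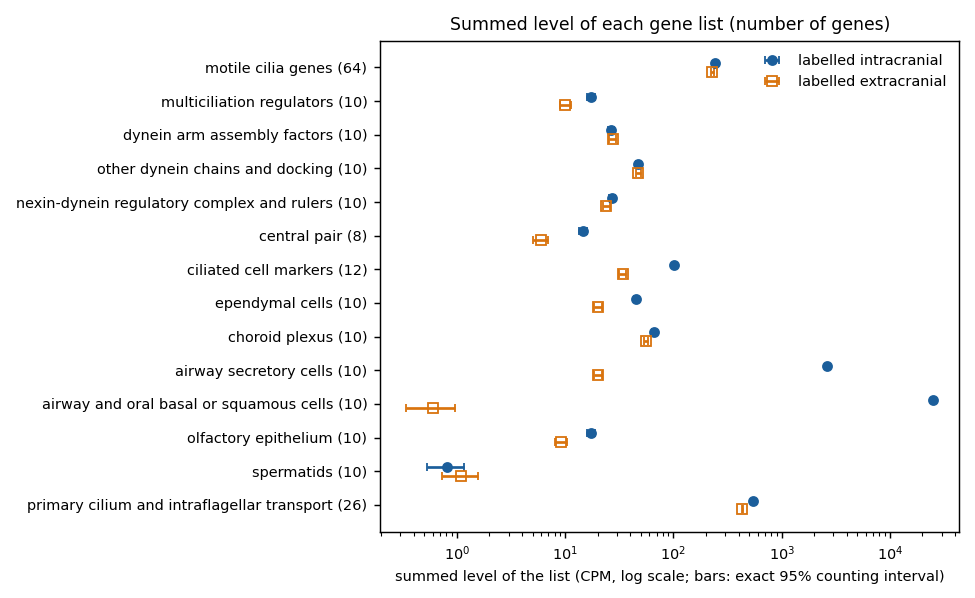
Summed level (x axis, CPM, log scale) of the motile cilia genes and of 13 lists of related genes and cell type markers (number of genes in brackets) in the intracranial (filled circles) and the extracranial library (open squares), with exact 95% counting intervals. The motile cilia genes lie at 242.6 and 229.8 CPM, whereas the basal or squamous list lies at 25008 and 0.598 CPM.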

How the data were processed

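Raw read counts per Ensembl gene, deposited by the authors without normalization, were used for both tumor libraries. The authors selected poly(A) RNA, built directional libraries, sequenced single reads of 72 cycles, aligned them with STAR and counted with featureCounts on Ensembl gene models. The submitters' processing notes name STAR 2.7.9a, FastQC 0.11.9, MultiQC 1.11, featureCounts and the build GRCm39. Strand use and the handling of reads with several alignments are not given in the sources used here, so counts of overlapping, antisense and near-identical genes are uncertain, and 27 members overlap exons of other genes, 25 of them on the opposite strand.

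Symbols, biotypes and summed exon lengths came from GENCODE M21, an older build, and covered 52135 IDs (94.1%). It gave 59 members, and 5 more (Dnai1, Dnai2, Cfap410, Cfap20dc and Cfap47) were found through RefSeq synonyms. Library sizes were scaled with the TMM factors of edgeR 4.0.16 (R 4.3.3), 1.006 and 0.994. Levels were given exact Clopper-Pearson 95% intervals and ratios the conditional exact binomial interval (SciPy 1.17.1), for genes with 10 or more counts over both libraries. In list medians, counts of 3 or fewer were set to 3. With 1 library per location, no model across genes could be fitted and no p-value is given. Procedures were tested on simulated counts. The shared share of a gene is that of its 72-base windows found in transcripts of other genes. Promoter sequences came from RefSeq (GRCm38.p6), and motifs were counted on both strands.

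The members and the 15 gene lists were chosen with earlier results of these data known. All members could be named, with full values for the 5 highest per library by CPM and by CPM per kb, the outer arm chains and the members known outside motile cilia or from sperm, and list genes with their list. Alternatives were upper quartile scaling, total counts and the size factors of DESeq2 1.42.0, other count minimums and call rules, a prior count of 2 and subsets of the members.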

Additional observations from a re-analysis of the deposited data

How the results depend on the processing

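No paired analysis was possible because 1 library stood for each location, and for the same reason no library could be left out. The count of members beyond 4-fold was 0 under the 3 other scalings, a minimum of 1 count or of 100 counts, and the 3 subsets of members (without those known outside motile cilia, by GENCODE M21 symbols alone, and without the 8 that share 10% or more of their sequence), and rose to 5 with the interval beyond 2-fold and to 4 by the ratio alone. The summed level depended on the members included. It was 133.3 and 127.6 CPM (intracranial and extracranial) without the members known outside motile cilia, 223.8 and 208.8 CPM with GENCODE M21 symbols alone, 147.8 and 139.8 CPM without those that share sequence, and 68.0 and 63.0 as CPM per kilobase. Scalings moved it within 239.4 to 244.0 and 228.5 to 232.9 CPM. The median log2 ratio ran from -0.36 to -0.23, the latter without the members known from sperm flagella, and the number detected from 38 to 43 and from 28 to 32. The subsets by symbol source and shared sequence were chosen after seeing the data. Scalings shifted all log2 ratios by 0.04 at most, and among 78 values of the context lists 74 stayed inside their counting interval, with a largest change of 1.33%. Depth limits the rarest members, since 24 of 64 had fewer than 10 counts over both libraries.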

Other observations

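A further 13 genes of the motile cilium outside the name rule were listed after values of the members had been seen, and so support nothing. Of these, 10 and 9 were detected, with a summed level of 193.5 CPM in the intracranial library and 118.8 CPM in the extracranial library. Tubb4b, a tubulin of cilia that many other cells use, gave 165 and 94.5 CPM of that. Mns1, a protein inside the doublets, had 157 and 163 counts, Kif9, a kinesin of the central pair, had 159 and 84, and Dnajb13, a chaperone of the radial spoke, had 33 and 51 (95% interval of the log2 ratio extracranial over intracranial 0.35 to 1.68). Daw1, a factor in dynein arm transport, and Ttll8, a tubulin glycylase, had 0 in both libraries, and Ttll10, of the same enzyme family, had 19 and 0. Of the 10 genes with 10 or more counts over both libraries, none met the 4-fold rule, against 7.19% of all genes.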
